A study of Homo sapiens with 8 samples.

Results

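The TRIM (tripartite motif) genes were taken as the GENCODE protein-coding genes on chromosomes 1 to 22 and X whose symbol is TRIM, a number and, in some, a letter. There were 73 such genes among 19970 protein-coding genes, and 6 other symbols that begin with TRIM, the TRIML genes and read-through genes among them, were left out by that rule. Chromatin that is free of nucleosomes was profiled by FAIRE-seq, in which formaldehyde-fixed chromatin is sonicated and the DNA that stays free of protein is recovered by phenol and sequenced. The cells were U2OS, a human osteosarcoma line, in 4 clones. The 2 wild type clones (WT_4 and WT_5) and the 2 clones with a knockout (KO) of ZBTB48 (KO_C5 and KO_D2), a zinc finger protein that binds telomeres and promoters, each gave 1 untreated and 1 treated library. Treatment was with interferon gamma (IFNγ) at 250 U/ml. It lasted 24 h per the labels, and a legend of the study names a longer time for FAIRE-seq, which leaves the duration uncertain. In what follows replicate 1 is WT_4 or KO_C5 and replicate 2 is WT_5 or KO_D2. Each genotype is represented by 2 clones only, so a difference between genotypes and a difference between clones cannot be told apart beyond that number.

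Most TRIM proteins share a RING domain, 1 or more B-boxes and a coiled coil, and many are E3 ubiquitin ligases. The end of the protein after the coiled coil differs between members and decides what is bound. A PRY-SPRY domain recognises proteins such as viral capsids, NHL repeats bind RNA or protein, a PHD finger with a bromodomain reads histones, and a COS box attaches the protein to microtubules. Part of the family acts in antiviral defence, and several of those genes are switched on by interferons through interferon-stimulated response elements (ISRE) in their promoters.

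A promoter was called open in a library when a deposited peak reached within 1 kb of a GENCODE start (TSS) of the gene. The strength of a promoter is given as the fold enrichment of its strongest peak (the fragment pileup at the summit over the local background) and as the percentile of that peak by −log10 p among all peaks of its library. The 8 lists held between 16730 and 37533 peaks on these chromosomes, and between 58.7% and 69.8% of protein-coding genes were open per library. Sequencing depth is not given by peak lists, and the smallest pileup called in a library was 5 or 6 fragments. In these bulk samples, fewer cells with an open promoter and a less open promoter per cell cannot be told apart. The osteoblast markers RUNX2, SP7 and COL1A1 were open in all 8 libraries, COL1A2 in 0, and between 3 and 5 of 7 such markers were open per library. Of the blood markers, PTPRC and CD3E were open in 0 libraries and SPI1 in WT_IFNγ replicate 2 alone. Between 2 and 4 of 4 epithelial markers were open per library, EPCAM and KRT8 in all 8. Of the IFNγ response genes, IRF1, TAP1 and PSMB9 were open in every library, untreated ones included, and GBP2 in 0. The promoter of ZBTB48 had a peak in all 8 libraries, which says nothing about the knockout because a peak at a promoter does not report the protein.

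The TRIM family was split between promoters that were open in every library and promoters with no peak at all. Of the 73 members, 30 were always open, 17 were variable (a peak in 1 to 7 libraries) and 26 were never open. Over all protein-coding genes the same classes held 52.1%, 21.7% and 26.2%. In the family they held 41.1%, 23.3% and 35.6%. For comparison, the 84 RNF genes, which also encode RING proteins, held 52 always open, 19 variable and 13 never open members. Among the 5 TRIM proteins that carry other symbols, peaks were found at PML and RNF207 in 7 libraries each, at MID2 in 2, and at MID1 and MEFV in 0. The classes are given next by type of protein. These lists are small and were made with earlier results of these data known, so their counts are a description.

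**Figure D1:**
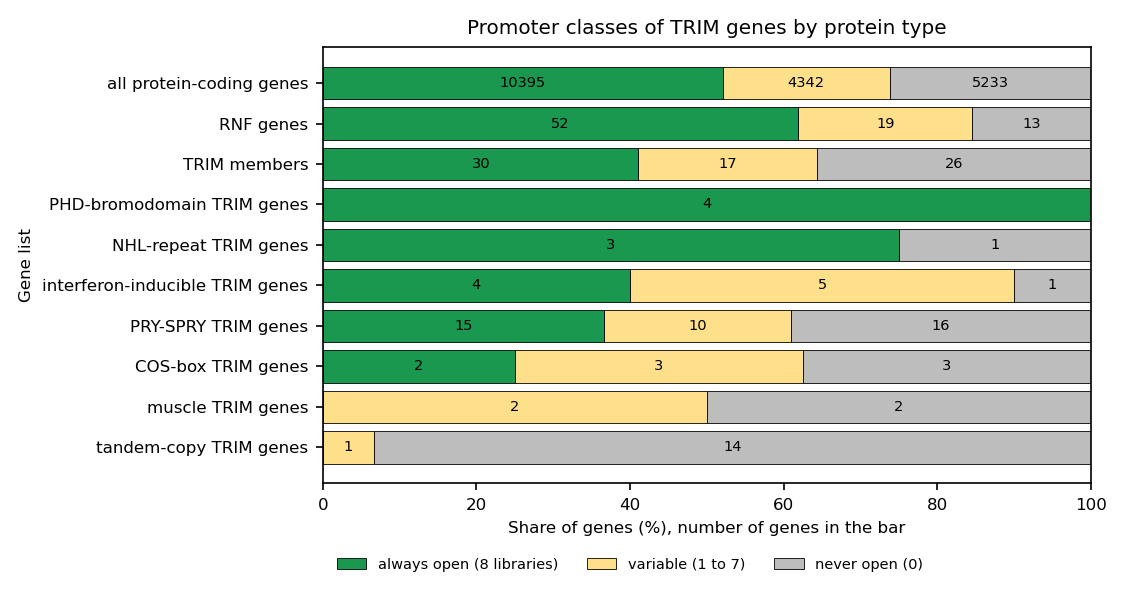
Each bar splits a gene list by promoter class, in percent of its genes, with the number of genes printed inside: always open (peak in 8 libraries), variable (1 to 7) and never open (0). All 4 PHD-bromodomain TRIM genes were always open, while 14 of the 15 tandem-copy TRIM genes were never open.

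Members of the PHD-bromodomain type, which act on chromatin in the nucleus, were open throughout. TRIM24, TRIM28, TRIM33 and TRIM66 were open in all 8 libraries. TRIM28, the corepressor recruited by KRAB zinc finger proteins, had a fold of 85.2 and 35.6 in untreated WT, 24.3 and 22.7 in untreated KO, 47.5 and 46.3 in WT_IFNγ, and 18.1 and 19.3 in KO_IFNγ. Its fold was thus lower in each of the 4 KO libraries than in any WT library. Lower fold in KO was general: the KO minus WT effect was above 0 at 7.36% of always open promoters untreated and 14.2% after IFNγ. With each library centred on its own median (described with the genotype comparison) the groups overlapped at TRIM28. The peak at TRIM66 also covered the start of RPL27A, a ribosomal protein gene on the opposite strand, so its openness cannot be assigned to TRIM66 alone.

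Of the 4 NHL-repeat members, TRIM2, TRIM3 and TRIM32 were always open and TRIM71, a regulator of early embryonic development that is silent in most adult tissue, was never open. TRIM2, a ligase known from neurons, was the weakest of the always open members, with a mean percentile of 34.4 and a fold between 5.07 and 15.8. Its peak lay in an intron 313 to 376 bp from an alternative start and up to 51012 bp from the canonical one. TRIM32, mutated in a limb-girdle muscular dystrophy, had a fold between 5.74 and 26.6 at a site where the peak also covered a start of ASTN2. Of the 8 COS-box members, TRIM9 and TRIM36 were always open, TRIM46, TRIM54 and TRIM67 were variable, and TRIM42, TRIM55 and TRIM63 were never open. TRIM9, a ligase best known from neurons, had a peak among the strongest of each library. Its percentiles among all peaks were between 97.5 and 99.8 and its fold between 46.3 and 117.

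Of the 4 genes of striated muscle, 0 were always open, 2 were variable and 2 were never open. TRIM55 and TRIM63, which encode the muscle RING finger proteins of the sarcomere, had no peak in any library. TRIM54, of the same subfamily, had a single peak in WT_IFNγ replicate 1 (fold 8.31), which lay in an intron 1116 bp from a start. TRIM72, which encodes a membrane repair protein of muscle, had a single peak in WT replicate 1 (fold 19.3), in an intron 1343 bp from its start. Both peaks reached the 1 kb window with their edge while the summit lay outside it.

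The 41 members with a PRY-SPRY end, the largest group, held 15 always open, 10 variable and 16 never open genes. Many of them lie in clusters. Of the 8 TRIM genes on the short arm of chromosome 6, near or in the MHC, TRIM26, TRIM27 and TRIM39 were always open, TRIM38 was variable, and TRIM10, TRIM15, TRIM31 and TRIM40 were never open. Of the 8 on 11p15, TRIM3, TRIM66 and TRIM68 were always open, TRIM5, TRIM6, TRIM21 and TRIM22 were variable, and TRIM34 was never open.

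The highest always open promoters were those of TRIM37, TRIM9 and TRIM68, with mean percentiles of 99.8, 99.1 and 94.0. TRIM37, a ligase that restrains the assembly of centrioles, stood between the 99.6 and 100.0 percentile in every library. The lowest were TRIM2, TRIM58 and TRIM32, with mean percentiles of 34.4, 49.1 and 49.4. TRIM58, a ligase of maturing red blood cells, had a fold between 6.70 and 17.3 in U2OS cells. The median percentile of the 30 always open members lay between 70.8 and 85.3 over the libraries, beside 70.1 and 86.4 for the 10395 always open promoters of all genes. The median width of their peaks ran from 556 to 888.5 bp and was above that of all always open promoters in each of the 8 libraries, where it ran from 476 to 725 bp.

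**Figure D2:**
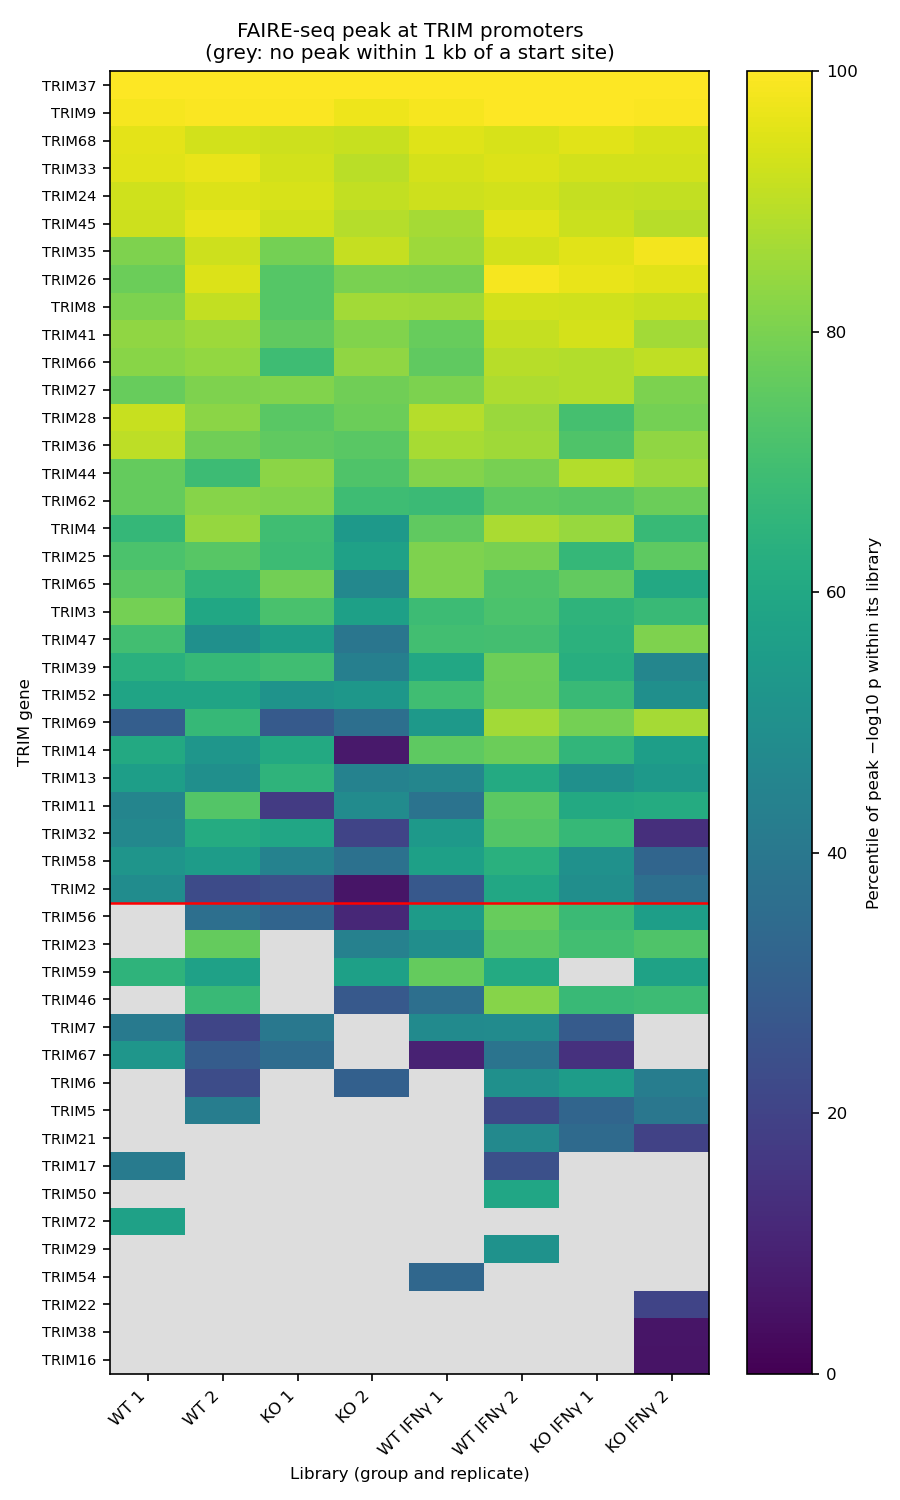
Rows are the 47 TRIM genes with a peak in at least 1 library and columns are the 8 libraries (group and replicate number). Colour gives the percentile of the promoter's strongest peak by −log10 p within its library, grey marks no peak, and the red line divides the 30 always open genes above from the 17 variable genes below. TRIM37 and TRIM9 are near the top in every library. TRIM56 is brighter in the 4 IFNγ columns on the right than in any untreated column with a peak. TRIM69 is brighter after IFNγ within each clone, while its untreated and IFNγ columns overlap.

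More TRIM promoters were open after IFNγ than before in each of the 4 clones, and in 3 of them the share of all genes rose too. The number of members rose from 35 to 37 in WT_4, from 38 to 42 in WT_5, from 33 to 38 in KO_C5 and from 35 to 40 in KO_D2. Over all genes the share open went from 64.4% to 60.6% in WT_4, from 66.7% to 69.8% in WT_5, from 58.7% to 65.4% in KO_C5 and from 59.0% to 63.1% in KO_D2. The mean was 35.2 ± 2.06 untreated and 39.2 ± 2.22 after IFNγ (SD, n = 4 libraries each), and the ranges overlapped at 37 and 38. The lists themselves grew with IFNγ in 3 of the clones, from 29567 to 37533 peaks in WT_5, from 19255 to 27457 in KO_C5 and from 16730 to 24727 in KO_D2. In WT_4 the list shrank from 21715 to 18913 peaks. With all lists held to the length of the shortest, the difference between IFNγ and untreated libraries was 1.25 promoters in place of 4. The part of list length in the count was not tested further.

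The comparison asked which members changed with the cytokine and whether that differed without ZBTB48. The list of 10 interferon-inducible members contributed 4 and 6 open promoters in untreated WT, 5 and 5 in untreated KO, 5 and 7 in WT_IFNγ, and 7 and 9 in KO_IFNγ. Each clone had more of them open after IFNγ, by 1 in each WT clone, by 2 in KO_C5 and by 4 in KO_D2, beside the shares of all genes given for the same clones, which fell in WT_4 and rose in the other 3. TRIM14, TRIM25, TRIM26 and TRIM69 were always open, TRIM5, TRIM21, TRIM22, TRIM38 and TRIM56 were variable, and TRIM34 was never open.

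The promoters of the listed members often hold the core of an ISRE, written here as GAAA, any 2 bases and GAAA on either strand. Windows of 300 bases around RefSeq starts were searched (250 before and 50 after). Of the 9 listed members with a window, 6 held a match (TRIM5, TRIM14, TRIM21, TRIM26, TRIM34 and TRIM69). A match was in 3.17% of the 21548 windows of all protein-coding genes. That is a share of windows and not of genes, and a gene can have more than 1 window. Over the family the ISRE core was in 10 of 77 windows (13.0%) of 58 matched members. The hexamer TTAGGG, which ZBTB48 binds, was in 10 of 77 member windows (13.0%) and in 8.89% of all windows. The match counted for TRIM69 lay at its canonical start (chr15:44736456-44736485), away from its peak. The 30-base sites of the other 5 are shown because TRIM5, TRIM14, TRIM21 and TRIM26 had a peak over the site in at least 1 library and TRIM34 had none. Capitals mark the ISRE core or the span of overlapping cores, read 5′ to 3′ on the strand of the gene (RefSeq, GRCh38.p14).

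TRIM14 (chr9:98119229-98119258, minus strand): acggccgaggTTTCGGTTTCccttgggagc

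TRIM26 (chr6:30213578-30213607, minus strand): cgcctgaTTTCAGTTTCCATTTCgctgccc

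TRIM5 (chr11:5685082-5685111, minus strand): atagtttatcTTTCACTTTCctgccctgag

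TRIM21 (chr11:4393663-4393692, minus strand): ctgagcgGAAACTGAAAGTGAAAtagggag

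TRIM34 (chr11:5624901-5624930, plus strand): gccccaaaaaTTTCACTTTCatttctcagg

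TRIM69, a ligase with reported activity against RNA viruses, had the largest change with IFNγ of the always open members. Its fold was 7.41 and 15.7 in untreated WT, 6.36 and 8.65 in untreated KO, 15.4 and 42.1 in WT_IFNγ, and 23.3 and 23.7 in KO_IFNγ. Each clone was higher after IFNγ, while the highest untreated library (WT_5) lay above the lowest IFNγ library (WT_4). With each library centred on its median, the rise was 1.70, 0.91, 1.63 and 1.51 on the log2 scale in WT_4, WT_5, KO_C5 and KO_D2, a mean of 1.44 ± 0.36 (SD, n = 4 clones). In limma across all always open promoters the effect was 1.31 ± 0.52 (SE) in WT (adjusted p = 1.00) and 1.57 ± 0.52 in KO (adjusted p = 0.779), so neither passed after adjustment. With the clone as a block the standard error fell to 0.24, and the limma adjusted p was 0.848 in WT and 0.201 in KO.

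The peak at TRIM69 was not at the canonical start. Its summits lay 1 to 15 bp from the nearest of 4 alternative starts on the plus strand of chromosome 15, at positions 44728988, 44729001, 44729055 and 44729073 (GRCh38), and between 7454 and 7544 bp upstream of the canonical start. The peak widened from 321 to 699 bp in the untreated libraries to 791 to 1116 bp after IFNγ, and these ranges did not overlap. The share of all always open promoters with such a gap in width was not counted. Their median width also rose with IFNγ in WT_5, KO_C5 and KO_D2, and fell in WT_4. The 150 bases just upstream of the first of these starts are shown because the peak that changed lay at them and not at the canonical start. The same stretch before the first start in the strongest peak of TRIM5, TRIM21 and TRIM56 held no full ISRE core. Capitals mark an ISRE core match at TRIM69 other than the one counted at the canonical start (GRCh38, plus strand).

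TRIM69 (chr15:44728838-44728987): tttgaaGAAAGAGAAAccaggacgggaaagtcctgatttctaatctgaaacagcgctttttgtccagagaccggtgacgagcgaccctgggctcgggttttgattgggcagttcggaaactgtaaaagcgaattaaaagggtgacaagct

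TRIM56, a ligase linked to STING and RNA virus defence, moved in the same direction. It had no peak in WT replicate 1, a fold of 6.58 in WT replicate 2, and 6.89 and 5.24 in untreated KO. After IFNγ its fold was 13.9 and 23.7 in WT and 15.9 and 9.76 in KO. Every IFNγ library stood above every untreated library, in fold and in percentile, with the library that lacked a peak taken as lowest. That order in percentile held for 1 of 73 members and for 118 of 19970 genes (0.591%), and the opposite order held for 0 members and 0.0351% of genes. In the limma fit without WT replicate 1, the library that lacked the peak, untreated WT was 1 library and its spread was assumed to be that of the other groups. There the effect of IFNγ was 1.33 ± 0.34 (SE) in WT (adjusted p = 1.00) and 0.95 ± 0.27 in KO (adjusted p = 0.729). The summits lay 2 to 97 bp from the canonical start at position 101085481 of chromosome 7 (GRCh38, plus strand). No ISRE core was found in its RefSeq window or in the 150 bases upstream of that start.

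TRIM21, the cytosolic receptor for antibody-coated virus, had no peak in any untreated library and none in WT_IFNγ replicate 1. Its fold was 10.2 in WT_IFNγ replicate 2, and 6.89 and 4.75 in KO_IFNγ. TRIM5, which blocks retroviral capsids, had a fold of 7.79 in WT replicate 2, 5.01 in WT_IFNγ replicate 2, and 6.92 and 7.36 in KO_IFNγ, and no peak elsewhere. Both were gained in both KO clones, a pattern of 2 of 73 members and of 456 of 19970 genes (2.28%). The count was 5 members with KO replicate 2 or KO_IFNγ replicate 1 left out, and 0 with lists of equal length. In WT, TRIM21 was gained in WT_5 alone, and TRIM5 was open in WT_5 with and without IFNγ.

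TRIM26, a ligase of antiviral signalling, had a fold of 42.0 and 57.7 in untreated WT, 26.6 and 28.96 in untreated KO, 30.4 and 110.6 in WT_IFNγ, and 69.1 and 43.4 in KO_IFNγ. TRIM14, an adaptor of the same signalling at mitochondria, had 23.8 and 12.2, then 14.4 and 4.79, then 30.4 and 32.3, then 15.2 and 9.72 in the same order. TRIM25, the ligase that activates RIG-I, had 28.9 and 20.1, then 21.6 and 16.1, then 28.6 and 28.5, then 17.1 and 18.3. Over both genotypes the 4 untreated and the 4 IFNγ libraries overlapped for all 3 genes. Within a genotype TRIM14 in WT and TRIM26 in KO did not overlap between treatments. That rests on 2 libraries per group, and the share of all promoters with such a gap was not counted. Centred fold rose with IFNγ in 4 of 4 clones at TRIM26 and in 3 of 4 at TRIM14 and TRIM25, and the deposited fold of TRIM26 fell in WT_4. None of the 3 passed for IFNγ in WT or KO in limma (adjusted p of at least 0.779). With the clone as a block none passed either, and the lowest limma adjusted p was 0.201, at TRIM26 in KO.

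Single peaks appeared at TRIM22 and TRIM38 in KO_IFNγ replicate 2 and in no other library. The fold was 6.39 at TRIM22, an antiviral gene next to TRIM5, and 4.72 at TRIM38, a regulator of innate immune signalling. The same library held the only peak at TRIM16 (fold 4.81), a gene of selective autophagy that is not on the interferon list. These 3 peaks had a percentile of 20.3, 5.65 and 5.26 and a summit pileup of 16, 10 and 9 fragments. Their local background was 1.66, 1.33 and 1.08 fragments. That was below the library's median of 3.32 at always open promoters, which was the highest of all libraries. TRIM34, which shares the 11p15 cluster with TRIM5 and TRIM22, had no peak although its window held the ISRE core shown above.

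**Figure D3:**
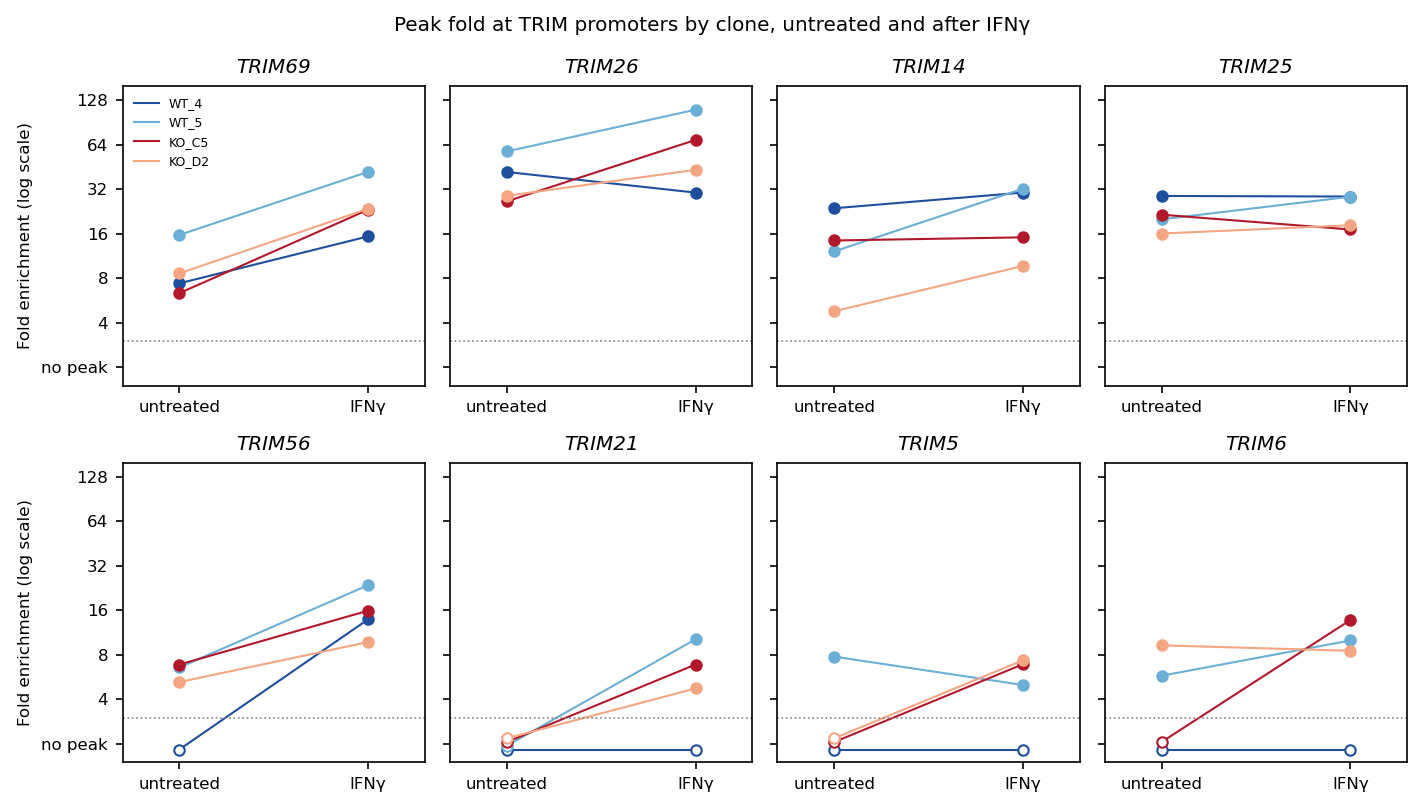
Each panel is a TRIM gene and each line a clone, from its untreated to its IFNγ library. The vertical axis is peak fold enrichment on a log scale, and open points under the dotted line mark no peak, drawn apart only for legibility. TRIM69 was higher after IFNγ in all 4 clones, TRIM56 in the 3 clones with a peak in both libraries and gained in WT_4, while the clones differed in direction at TRIM25.

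In each clone the family gained more TRIM peaks after IFNγ than it lost, and so did all genes except in WT_4. Of the 73 members, gains numbered 4 in WT_4, 4 in WT_5, 5 in KO_C5 and 5 in KO_D2. Losses numbered 2 in WT_4 (TRIM17 and TRIM72) and 0 elsewhere. In the same clones 1.87%, 4.13%, 7.99% and 5.29% of all genes gained a peak and 5.69% (WT_4) or between 1.04% and 1.27% (the other clones) lost one. TRIM5, TRIM21, TRIM23 and TRIM46 were gained in at least 2 clones and lost in none, a pattern of 3.47% of all genes, and 0 members were lost in at least 2 clones and gained in none (0.641% of all genes). No member was gained in both WT clones (0.11% of all genes) or lost in both (0.235%), lost in both KO clones (0.0951%), or gained or lost in all 4 (0.02% and 0%).

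TRIM6, a ligase of interferon signalling beside TRIM5, had a fold of 5.78 in WT replicate 2 and 9.29 in KO replicate 2, 10.0 in WT_IFNγ replicate 2, and 13.8 and 8.53 in KO_IFNγ. Clone WT_4 lacked it with and without IFNγ. TRIM23, which carries an ARF-type GTPase domain, had a fold of 19.5 and 10.7 in untreated WT and KO replicates 2, 11.9 and 21.7 in WT_IFNγ, and 16.2 and 14.05 in KO_IFNγ, and no peak in untreated replicate 1 of either genotype. Other genes, TRAPPC13 and SHLD3, start within 1 kb of it. TRIM46, which organises microtubules of the axon, was open in the same 6 libraries, with a fold of 16.1, 7.62, 9.45, 33.2, 16.7 and 13.9 in the same order. Its peak lay 447 to 486 bp from the nearest TRIM46 start, covered the start of KRTCAP2 and did not cover a TRIM46 start.

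TRIM17, TRIM29 and TRIM50 had a peak in 1 or 2 libraries. TRIM17, a ligase known from neurons, had a fold of 11.5 in WT replicate 1 and 6.22 in WT_IFNγ replicate 2. TRIM29, an epithelial member, had a fold of 11.9 in WT_IFNγ replicate 2 alone, 9203 bp from its canonical start. TRIM50, a member known from the stomach, had a fold of 13.7 in that library alone, at a summit 1291 bp from a start. That library was the one with the most peaks.

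Among the 30 always open members, centred fold was higher after IFNγ in all 4 clones at TRIM4, TRIM26, TRIM47 and TRIM69, against 9.2% of the 10395 always open promoters. It was lower in all 4 clones at TRIM24, TRIM28, TRIM33, TRIM45 and TRIM68, against 16.1%. At these 5 the deposited fold, without centring, rose in WT_5. At TRIM47 the deposited fold fell in WT_4, from 29.1 to 22.2. The strongest TRIM47 peak in KO_C5 was at 75877855-75878852 untreated and at 75877206-75877590 after IFNγ. The rise in that clone thus compares separate peaks. The fall at TRIM24, a coregulator of nuclear receptors, was 0.26 ± 0.19 on average (SD, n = 4 clones), and at TRIM33, a coregulator of SMAD signalling, 0.24 ± 0.12. In limma 0 of 10395 promoters passed an adjusted p of 0.05 for IFNγ in WT, 0 in KO, and 0 for the difference between them (0% each). Unadjusted p was under 0.05 at 102, 310 and 76 promoters, among them 2, 1 and 0 TRIM members. The clone block called 1 promoter for IFNγ in WT, that of IL15RA, which is no TRIM gene, and 0 in the other contrasts.

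The members with the smallest p in these fits were TRIM52 and TRIM69 in WT and TRIM69 and TRIM39 in KO. TRIM52, a RING protein without a PRY-SPRY end, had a fold of 18.1 and 11.5 in untreated WT, 9.42 and 11.6 in untreated KO, 21.4 and 28.4 in WT_IFNγ, and 15.4 and 7.12 in KO_IFNγ. Its WT libraries, 2 per treatment, did not overlap between treatments and its KO libraries did. How many of all promoters had such a gap was not counted. The centred effect was 0.84 ± 0.32 (SE) in WT (limma adjusted p = 1.00), and the KO minus WT difference of the effect was -0.93 ± 0.45 (limma adjusted p = 1.00). TRIM39, a ligase of the cell cycle in the MHC, had a fold of 26.2 and 18.3, then 21.3 and 11.5, then 18.6 and 32.2, then 15.3 and 7.40 in the same order of groups. Its effect in KO was -0.66 ± 0.32 (limma adjusted p = 0.779), and its KO minus WT difference was -0.89 ± 0.45 (limma adjusted p = 1.00). The summit at TRIM39 was at 30327151 and 30327140 in untreated KO and at 30326894 and 30326448 in KO_IFNγ. Fold was therefore read at different positions. The TRIM39 peak also covered a start of HCG18 in every library.

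No TRIM promoter divided the genotypes by presence. There were 0 members open in all WT and no KO libraries, a pattern of 45 of 19970 genes (0.225%), and 0 with the reverse (0% of genes). Restricted to untreated libraries, 0 members were WT-only (1.91% of genes) and 0 KO-only (0.02%), and after IFNγ 0 were WT-only (0.811%) and 0 KO-only (0.115%). Over all libraries 38.0 ± 2.94 members were open in WT and 36.5 ± 3.11 in KO (SD, n = 4 libraries each, from 2 clones). Single KO clones lacked peaks that the other clones had, and the share of all genes with this pattern was not counted. TRIM7, a ligase of enterovirus infection, was absent from both libraries of KO_D2, and had a fold of 10.99 and 6.10 in untreated WT, 13.6 and 10.8 in WT_IFNγ, and 9.29 and 7.18 in KO_C5 without and with IFNγ. TRIM67, a neuronal member, was also absent from both KO_D2 libraries. Elsewhere it had a fold between 5.09 and 17.5 and a percentile between 9.74 and 52.5. TRIM59, a ligase at membranes, was absent from both KO_C5 libraries and had a fold between 10.8 and 31.5 elsewhere. Since the other KO clone was open at each of these, they vary between KO clones. The lists of untreated KO_D2 and KO_C5 were also the shortest of the untreated libraries, with 16730 and 19255 peaks.

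Signal at the always open members was compared on the log2 fold of each library minus its median over all 10395 always open promoters, because the deposited fold was lower in KO overall. Without this centring the KO minus WT effect over all promoters had a median of -0.62 untreated and -0.51 after IFNγ on the log2 scale, and with it 0.04 and -0.02. The median local background at always open promoters was 1.02 to 1.77 fragments in WT libraries and 1.98 to 3.32 in KO libraries, which did not overlap. In limma 0 promoters (0%) passed for KO minus WT, untreated or after IFNγ. Unadjusted p was under 0.05 at 773 and 905 promoters, among them 2 and 3 TRIM members. The median centred effect over the 30 members was 0.11 and -0.02.

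TRIM37 had a fold of 118 and 81.4 in untreated WT, 55.0 and 47.7 in untreated KO, 81.1 and 122.5 in WT_IFNγ, and 49.7 and 36.5 in KO_IFNγ. Every KO library was below every WT library, centred or not, and TRIM37 was the only always open member with that order in centred fold (5.82% of promoters). After IFNγ the effect was -0.73 ± 0.23 (SE, limma adjusted p = 0.563). Local background at TRIM37 ranged over 2.52 to 4.20 fragments in WT libraries and over 5.02 to 9.33 in KO libraries, while the summit pileup was 285 to 529 in WT and 286 to 411 in KO and overlapped. On the summit pileup the effect was -0.36.

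Every KO library lay above every WT library in centred fold at TRIM24, TRIM27 and TRIM35, against 6.26% of promoters. TRIM27, a ligase first found as a fusion partner of RET, had a fold of 34.9 and 23.3 in untreated WT and 35.7 and 27.8 in untreated KO, then 27.6 and 43.7 in WT_IFNγ and 40.0 and 23.8 in KO_IFNγ. These deposited values overlapped, and the order appeared only with centring. The untreated effect was 0.80 ± 0.25 centred (SE, limma adjusted p = 0.648), 0.14 without centring and 0.14 on the summit pileup. TRIM35, a member with a role in innate signalling whose peak also covered the start of PTK2B, had a fold of 40.1 and 42.7 in untreated WT, 34.6 and 47.8 in untreated KO, 34.9 and 57.1 in WT_IFNγ, and 64.8 and 62.1 in KO_IFNγ. After IFNγ its KO libraries were above its WT libraries also without centring, by 1.00 ± 0.33 centred (SE, limma adjusted p = 0.563) and 0.51 without. TRIM13, a ligase of the endoplasmic reticulum, was 0.84 ± 0.31 higher in untreated KO (SE, limma adjusted p = 0.656) and 0.18 without centring. For TRIM24 the direction turned without centring, since its fold in untreated WT was 91.2 and 65.2 and in untreated KO 76.2 and 54.7, with 55.5 and 74.0 in WT_IFNγ and 63.8 and 48.1 in KO_IFNγ.

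**Figure D4:**
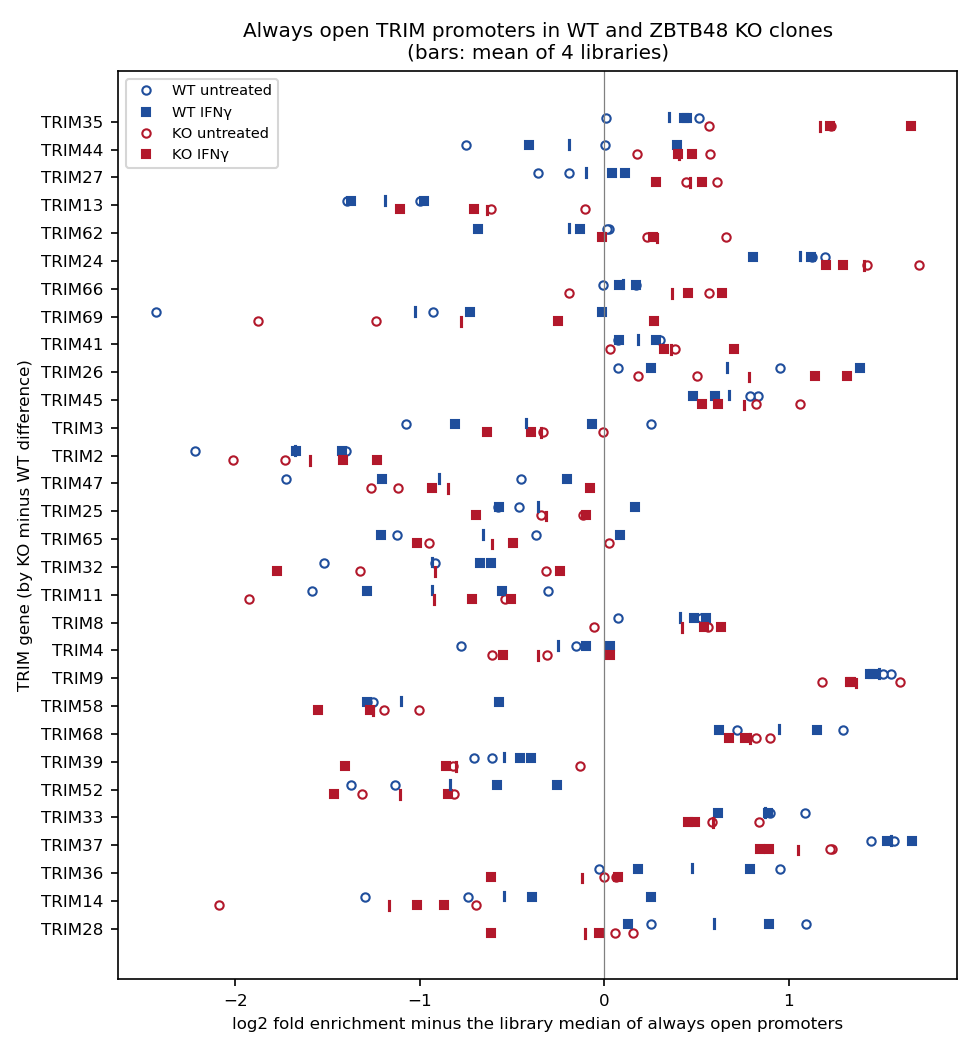
Rows are the 30 always open TRIM genes, ordered by the mean difference between KO and WT, and the horizontal axis is log2 fold enrichment minus the library's median over always open promoters. Blue is WT, red is KO, open circles are untreated, filled squares are IFNγ libraries, and bars are means of 4 libraries. The genotypes overlap at most genes, and TRIM37 (KO lower) and TRIM24, TRIM27 and TRIM35 (KO higher) are the 4 where they do not.

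The 26 never open members are given in 2 parts, by whether they were on the tandem-copy list. The first part is the 14 never open members of that list, recent copies on chromosomes 2, 7 and 11 such as TRIM43, TRIM48, TRIM49, TRIM64, TRIM73 and TRIM77. Reads with a mapping quality under 30 were removed by the authors, so reads from near-identical copies could be lost. The share of 100-base words within 1 kb of the canonical start that occur once in the genome had a median of 69.2% over the 15 genes of that list. It was 15.8% at TRIM73, 17.8% at TRIM74, 32.6% at TRIM64, 33.2% at TRIM64B, 44.1% at TRIM49 and 47.3% at TRIM49C. At these 6 an absent peak is uncertain. At the other never open genes of the list the share ran from 68.8% (TRIM43) to 96.8% (TRIM48), so most words of each window occurred once. A word that differs from its copies at 1 base counts as unique here. The share therefore cannot settle whether reads were lost at these genes too. TRIM50, the list's other member and the only one with a peak, had 76.9%.

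The second part is the 12 never open members that are not on that list, and their windows were unique throughout (100% of words). They are TRIM10, TRIM15, TRIM31 and TRIM40 of the MHC region, TRIM60, TRIM61 and TRIM75 on chromosome 4, the muscle genes TRIM55 and TRIM63, TRIM34, TRIM42 and TRIM71. TRIM10 is known from red blood cell formation, and TRIM31 and TRIM40 from the gut. In the always open members the lowest share of unique words was 99.4%. Without the tandem-copy list the family held 30 always open, 16 variable and 12 never open genes (51.7%, 27.6% and 20.7%), beside 52.1%, 21.7% and 26.2% of all genes. The list was made with earlier results of these data known, and copies were not taken out of all genes, so these shares are not like for like.

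The base composition of the promoters moved with the class. The median GC content of RefSeq windows was 67.7% in 21 always open members, 58.7% in 15 variable members and 44.6% in 22 never open members. In all genes it was 66.3%, 60.8% and 50.7%. The ratio of observed to expected CpG had medians of 0.815, 0.441 and 0.174 in the members and 0.846, 0.689 and 0.259 in all genes. Fragments of different base composition are not amplified and sequenced equally, and the part of this in the peak calls was not tested.

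**Figure D5:**
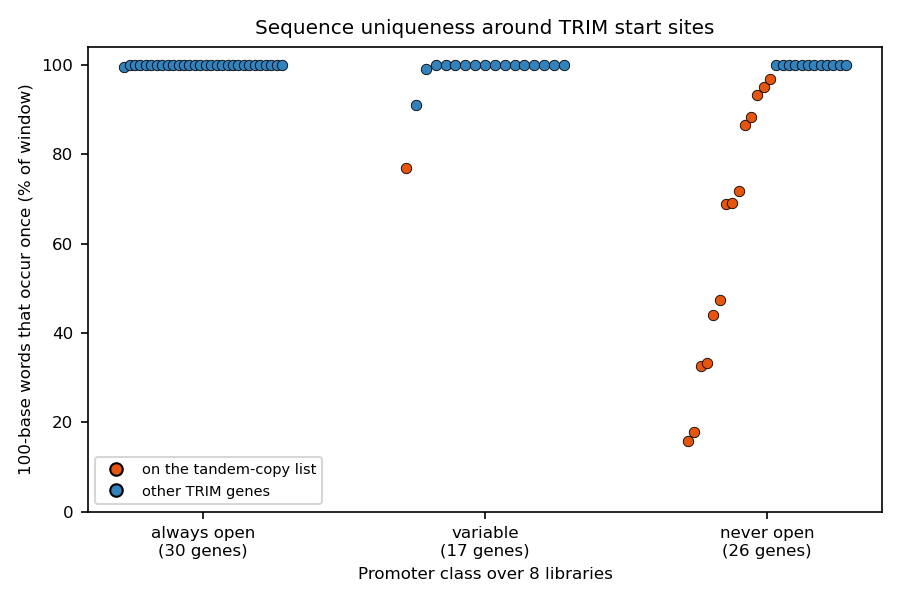
Each point is a TRIM gene, placed by promoter class and by the share of 100-base words within 1 kb of its canonical start that occur once in GRCh38. All points below 70% are never open genes of the tandem-copy list (orange), while the always open genes are at 99.4% or more.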

How the data were processed

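FAIRE-seq peak lists were analysed, 1 for each of 8 libraries of 4 U2OS clones. Per the methods and processing notes, the authors trimmed reads with Trimmomatic, aligned them to GRCh38 with Bowtie2 2.2.5, removed reads of mapping quality under 30 with SAMtools 1.14 and called peaks with MACS2 2.2.7.1 in paired-end mode. deepTools 3.5.1 is also named. The lists precede the described analysis of reproducibility. Whether input DNA was the control is not given in the sources used here. The deposited fold enrichment is a ratio of summit pileup to local background, and −log10 p and −log10 q are deposited as the caller wrote them. The score column was not used, and chromosome Y and unplaced sequences were left out.

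Peaks were assigned to GENCODE 44 starts within 1 kb, with the strongest by −log10 p kept per gene and library. Pileup and background were solved from fold and −log10 p (100% of peaks within 1%). Centred log2 fold at promoters open in all 8 libraries was tested with limma 3.58.1 in R 4.3.3 over the 4 groups with Benjamini-Hochberg adjustment. The p-values rest on 2 libraries per group. The code was tested on simulated data. The members and lists were chosen with earlier results of these data known. Named were the listed interferon members, variable members, the 3 highest and 3 lowest always open members and the 2 with the smallest p per contrast. TRIM24, TRIM28, TRIM33 and others named by role were chosen after their values were seen.

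Each clone gave an untreated and a treated library, so the clone label pairs them, and their deviations from the group means correlated across promoters (r = 0.737 in WT and 0.411 in KO). Alternatives were a window of 500 bp, the canonical start alone, the summit within the window, −log10 q of at least 3, fold of at least 4, lists of equal length, no centring, percentile, summit pileup, the clone block and omission of each library. Sequences came from RefSeq promoter windows and the GRCh38 reference, in which 0 peaks ran past a chromosome end. Of 73 members, 58 matched a RefSeq window. Some marker genes and 1 further motif are not reported here.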

Additional observations from a re-analysis of the deposited data

How the results depend on the processing

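Peak lists carry no depth, and with 2 libraries per group even the effect of 1.57 ± 0.52 (SE) at TRIM69 on the log2 scale did not pass after adjustment, so changes of that size or smaller could be missed. The classes kept their size within 1.5 times under every alternative, with 28 to 31 always open, 14 to 17 variable and 26 to 31 never open members. The 10 effects of named members kept their direction, and none passed after adjustment, under every alternative that could be fitted. TRIM69 could not be fitted with the canonical start alone, where it was not open in all libraries. With lists of equal length, 1 member was KO-only untreated, 1 KO-only after IFNγ, 1 gained in WT and 0 gained in KO, and IFNγ minus untreated libraries was 1.25 promoters. With the replicate block, which pairs the libraries of a clone, 1 promoter was called for IFNγ in WT, against 0, and no other call changed. The cause was not tested, beyond the smaller residual spread that a block leaves. With each library left out in turn, members that were WT-only numbered 0 to 2 untreated and 0 to 3 after IFNγ, KO-only 0 to 1 and 0 to 3, gained in WT 0 to 3, lost in WT 0 to 1, gained in KO 2 to 5 and gained in all libraries 0 to 1, since a pattern then rests on 1 library in a group. The highest of these came without WT replicate 2 or KO replicate 1 (WT-only untreated), without WT_IFNγ replicate 1 (WT-only after IFNγ), without that library or WT replicate 2 (gained in WT) and without WT_IFNγ replicate 2 or KO_IFNγ replicate 1 (KO-only after IFNγ). Over the same omissions the effect of IFNγ on TRIM69 ran from 0.56 (without WT replicate 1) to 2.06 (without WT replicate 2) in WT and from 1.24 to 1.88 in KO.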
